A study of Mus musculus with 12 samples.

Results

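Long non-coding RNAs (lncRNAs) are transcripts with no long protein-coding frame, and 8 well-studied ones of the mouse are described here across 4 treatments of 1 tumour cell line. They are Dnm3os, Malat1, Neat1, Kcnq1ot1, Pvt1, Mir17hg, H19 and Tug1, which are 8 of the 27179 gene rows of the deposited count table and were found by symbol. Of the 8, 7 passed the filter on low counts that left 12910 genes for testing, and H19 did not. Dnm3os was chosen by its fold change between libraries with and without dTAG-13, so its values in those comparisons are given as a description with no test. The other 7 were listed by name, but with earlier results of these data known.

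The cells were MC38-idAdpgkG, a line of the mouse colon carcinoma MC38 (strain C57BL/6) that carries a stably transfected Adpgk(R304M) construct fused to turboGFP, which doxycycline induces and the degrader dTAG-13 removes. Every group, the control included, received mouse interferon gamma (mIFNg) at 20 ng/mL for 51 h. The control group received nothing else, and the doxycycline group also received 1 µg/mL doxycycline for 51 h. The dTAG-13 group received 1 µM dTAG-13 for the last 3 h, after 48 h of mIFNg alone. The doxycycline plus dTAG-13 group received doxycycline throughout and dTAG-13 for the last 3 h. Each group had 3 libraries, which the design describes as technical replicates of 1 biological sample. Every p-value here therefore measures the spread between libraries of 1 culture and not between cultures.

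LncRNAs act as RNA. Malat1 is retained in nuclear speckles, the bodies where splicing factors gather, and Neat1 is the scaffold around which paraspeckle proteins assemble. Dnm3os and Mir17hg are host transcripts, from which Drosha and then Dicer1 cut microRNAs (miRNAs) that repress mRNAs matching their seed, the stretch near the miRNA's 5′ end. Kcnq1ot1 and H19 are imprinted and are transcribed from opposite parental chromosomes within neighbouring domains. Pvt1 lies next to the Myc proto-oncogene and is often amplified with it in tumours, and Tug1 is a widely expressed lncRNA first described in the retina.

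The miRNAs are what a change in Dnm3os or Mir17hg could feed, so their mature sequences are shown. They were taken from RefSeq on GRCm38.p6 and are written 5′ to 3′ with the seed, bases 2 to 8, in capitals. Dnm3os holds the hairpins of Mir199a-2 and Mir214, and no seed is shared among their 4 mature products.
mmu-miR-199a-5p: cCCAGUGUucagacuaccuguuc
mmu-miR-199a-3p: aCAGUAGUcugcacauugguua
mmu-miR-214-5p: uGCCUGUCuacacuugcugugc
mmu-miR-214-3p: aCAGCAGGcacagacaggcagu

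Mir17hg is the host of the miR-17-92 cluster, an oncogenic set of 6 hairpins on chromosome 14. The main product of each hairpin is shown because they fall into families by seed. mmu-miR-17-5p and mmu-miR-20a-5p share the seed AAAGUGC, and mmu-miR-19a-3p and mmu-miR-19b-3p share GUGCAAA, while those of mmu-miR-18a-5p and mmu-miR-92a-3p differ from both.
mmu-miR-17-5p: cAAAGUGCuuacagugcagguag
mmu-miR-20a-5p: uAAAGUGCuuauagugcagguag
mmu-miR-18a-5p: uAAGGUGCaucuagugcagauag
mmu-miR-19a-3p: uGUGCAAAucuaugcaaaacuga
mmu-miR-19b-3p: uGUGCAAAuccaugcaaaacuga
mmu-miR-92a-3p: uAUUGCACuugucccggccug

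The rows were assigned to annotated genes on GRCm38, the assembly also called mm10, which the submitters' processing notes name. Dnm3os (Entrez 474332, chr1:162217623-162225550, plus strand) lies wholly within the coding gene Dnm3, on the opposite strand and within an intron, with 0 bp of exon shared. Kcnq1ot1 (Entrez 63830, chr7:143213111-143296547, minus strand) lies within Kcnq1 on the opposite strand and shares 121 bp with its exons. Tug1 (Entrez 544752, chr11:3639785-3648814, minus strand) shares 483 bp of exon with Morc2a on the opposite strand in its GENCODE model, which runs on to 3649673. The positions in parentheses are those of the RefSeq models, and overlaps were computed on the GENCODE models. Malat1 (Entrez 72289, chr19:5795690-5802672) and Neat1 (Entrez 66961, chr19:5824708-5845480) are unspliced neighbours on the minus strand and overlap no coding gene. Pvt1 (Entrez 19296, chr15:62037986-62260215) and Mir17hg (Entrez 75957, chr14:115044390-115046728) are on the plus strand, and H19 (Entrez 14955, chr7:142575530-142578146) is on the minus strand. None of these 5 overlaps a coding gene. Whether the reads were counted by strand is not given in the sources used here. Reads over Dnm3os or Kcnq1ot1 therefore cannot be told apart from those of unspliced RNA of Dnm3 or Kcnq1. Over the shared exon bases, reads of Kcnq1ot1 and Kcnq1, and of Tug1 and Morc2a, cannot be told apart either.

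The libraries held between 22165538 and 32809573 counted reads, with normalisation factors between 0.965 and 1.03. The library source is labelled colon, but 0 of 12 markers of colon epithelium reached a mean of 1 CPM (counts per 1000000), their summed level was 0.282 to 1.00 CPM in every library, and 3 of them had 0 reads throughout. Of 10 mesenchymal markers 7 were detected at that level, and their summed level was 3362 to 3438 CPM in the libraries without dTAG-13 and 2502 to 2631 CPM in those with it. Of 9 leukocyte and 5 endothelial markers, 1 each was detected. The summed leukocyte level was 6.44 to 8.17 CPM without dTAG-13 and 8.37 to 9.20 CPM with it, and both leukocyte markers that could be tested were called higher with dTAG-13, Cd14 at 0.27 on the log2 scale (edgeR adjusted p = 0.026) and Lyz2 at 0.78 (adjusted p = 0.0365). The summed endothelial level was 3.07 to 3.69 CPM without dTAG-13 and 2.01 to 4.28 CPM with it. Pecam1, 1 of 2 tested, was called lower on top of doxycycline at -0.39 (edgeR adjusted p = 0.0492). It was also called lower with both compounds than with dTAG-13 alone, at -0.56 (edgeR adjusted p = 0.015). The part of these markers' differences in the lncRNA results was not tested. In bulk RNA, fewer cells with a transcript and less of it in each cell cannot be told apart.

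Levels are given in CPM after TMM scaling, and levels of different genes are compared only per kilobase of annotated exon, merged over the transcripts of each gene in GENCODE. In control libraries the order per kb was Tug1 at 9.31 ± 0.450 CPM per kb, Malat1 at 8.26 ± 0.491, Pvt1 at 3.19 ± 0.242, Mir17hg at 0.835 ± 0.179, Neat1 at 0.593 ± 0.0311, Dnm3os at 0.381 ± 0.0444, H19 at 0.0404 ± 0.0137 and Kcnq1ot1 at 0.0198 ± 0.00157 (SD, n = 3). No neighbours in that order overlapped. Malat1 was above Tug1 in the other 3 groups, but per kb of the longest transcript Tug1 was above Malat1 with doxycycline, at 14.5 against 11.9 CPM per kb. By either length Dnm3os was above Neat1 in both groups with dTAG-13 and below it in both without. Neat1 was divided by 20771 bp under both lengths. The libraries were enriched on oligo(dT) beads, so the order covers only RNA captured that way. Neighbours overlapped for Mir17hg and Neat1 with doxycycline alone, and for H19 and Kcnq1ot1 in all groups except the control. The RefSeq models of Mir17hg and Kcnq1ot1 span 2339 and 83437 bp, against 3536 and 93092 bp of GENCODE exon. Their levels per kb depend on the model chosen, and an order by RefSeq length was not computed.

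**Figure D1:**
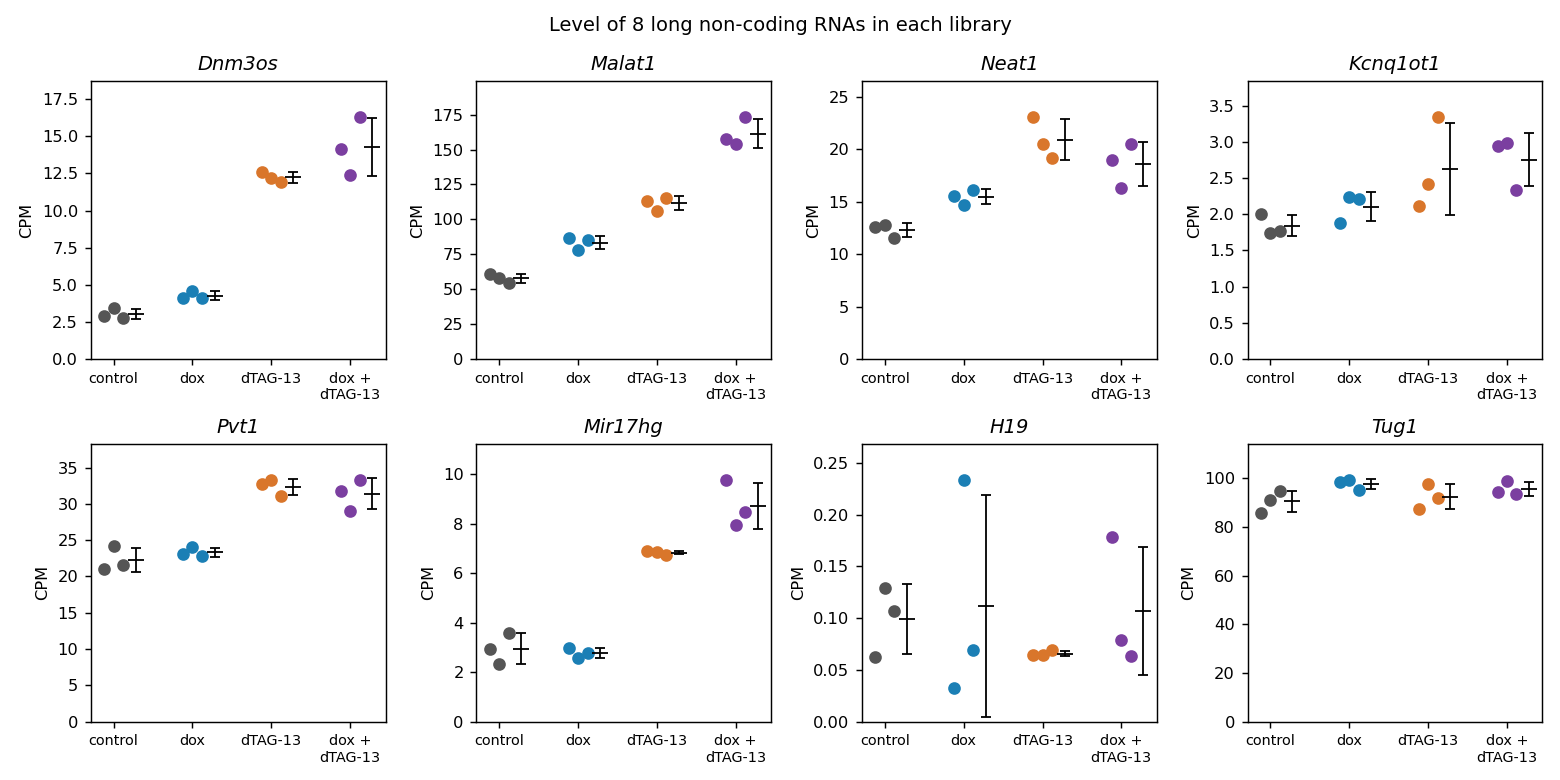
Level of each lncRNA in CPM (linear axis from 0, scaled separately per panel) in the 3 libraries of each group. Points are libraries, and the bar beside them is the mean with 1 SD; in Dnm3os the 6 libraries with dTAG-13 lie between 11.9 and 16.3 CPM and the other 6 between 2.73 and 4.60 CPM, while Tug1 spans 85.9 to 99.3 CPM over all 12.

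Dnm3os was low without dTAG-13 and several-fold higher after 3 h of it. In control libraries it was at 2.92, 3.41 and 2.73 CPM, and with doxycycline at 4.11, 4.60 and 4.11 CPM. With dTAG-13 alone it was at 12.6, 12.2 and 11.9 CPM, and with both compounds at 14.2, 12.4 and 16.3 CPM. The 6 libraries with dTAG-13 all lay above the 6 without, and the doxycycline libraries above the control ones. These levels rest on 77 to 138 reads per library without dTAG-13 and 316 to 510 with it.

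As a description, the log2 difference of Dnm3os was 2.01 (SE 0.110, 4.03 times as high) between dTAG-13 and control, and 1.75 (SE 0.103, 3.36 times as high) between doxycycline plus dTAG-13 and doxycycline. Those 2 differences ranked 12 and 29 among the 12910 genes. Doxycycline against control was not used to choose it but shares the control libraries, and here Dnm3os rose by 0.50 (SE 0.131, edgeR adjusted p = 0.00275), with all 3 doxycycline libraries above all 3 controls. Between doxycycline plus dTAG-13 and dTAG-13 alone the log2 difference was 0.23, with a 95% interval of 0.06 to 0.40 and an edgeR adjusted p of 0.0555. That comparison shares the dTAG-13 libraries with the choice of Dnm3os. It passed the threshold in 5 of 20 alternatives, with values from 0.12 to 0.33.

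Dnm3, the dynamin gene in whose intron Dnm3os lies, did not follow it. Dnm3 had 3, 17 and 15 reads in control, 13, 10 and 7 with doxycycline, 4, 9 and 12 with dTAG-13, and 2, 3 and 5 with both compounds. Its read count was below that of Dnm3os in every library. The log2 difference of Dnm3 was -0.48 (SE 0.495, edgeR adjusted p = 0.409) with dTAG-13 and -1.38 (SE 0.629, adjusted p = 0.0538) with dTAG-13 on top of doxycycline. The second passed the threshold in 4 of 18 alternatives. The nearest coding gene at higher coordinates, Mettl13, a methyltransferase gene 306.6 kb away, had a log2 difference of -0.05 with dTAG-13 (edgeR adjusted p = 0.47) and was lower with both compounds than with dTAG-13 alone, at -0.20 (SE 0.0594, adjusted p = 0.0124), a call lost without 3 of the single libraries. Both microRNA rows inside Dnm3os, Mir199a-2 and Mir214, had 0 reads in all 12 libraries. Oligo(dT)-selected libraries do not measure mature miRNAs, so these data hold no level for the miRNAs shown above.

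The start of Dnm3os is shown because its level differed most among the 8 with dTAG-13, beside that of Tug1, whose level differed least. RefSeq windows from 250 bases before to 50 after the start were found for 5 of the 8 genes (Dnm3os, Malat1, Kcnq1ot1, Mir17hg and Tug1). The Dnm3os window is chr1:162217373-162217672 on the plus strand and the Tug1 window is chr11:3648765-3649064 on the minus strand, both on GRCm38.p6. Both strands were searched for the E-box CANNTG (bound by Twist and other helix-loop-helix factors), the TATA box TATAAA, the TEAD motif GGAATG, the AP-1 motif TGANTCA, the interferon-gamma-activated site TTCNNNGAA, the CAAT box CCAAT, the GC box GGGCGG and the CArG box bound by serum response factor. The CArG box was added after the Dnm3os window had been seen. Capitals mark every match.
Dnm3os: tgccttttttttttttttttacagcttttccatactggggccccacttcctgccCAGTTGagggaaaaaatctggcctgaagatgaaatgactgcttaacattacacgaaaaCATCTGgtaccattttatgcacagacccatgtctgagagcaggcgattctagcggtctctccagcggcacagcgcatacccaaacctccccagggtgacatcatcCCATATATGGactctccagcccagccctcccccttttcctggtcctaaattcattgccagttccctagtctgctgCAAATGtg
Tug1: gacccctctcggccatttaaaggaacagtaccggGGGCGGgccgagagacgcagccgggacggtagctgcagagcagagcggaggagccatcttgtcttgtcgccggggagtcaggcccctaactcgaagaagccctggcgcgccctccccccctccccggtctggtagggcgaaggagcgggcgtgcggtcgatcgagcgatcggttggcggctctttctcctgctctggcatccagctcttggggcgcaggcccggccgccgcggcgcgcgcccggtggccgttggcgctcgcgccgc

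The Dnm3os window held 3 E-boxes, whose first bases lie at positions -196, -138 and 43 from the start, and 1 CArG box at position -33. An E-box was in 72.1% of the 27025 promoter windows of that length and a CArG box in 1.6%. The Tug1 window held 1 GC box, a motif found in 35.9% of windows. That window is set by the RefSeq start and lies inside the GENCODE model, which runs on to 3649673. It is therefore not upstream of the longer model. No window of the 5 held a TATA box (14.2% of all windows), TEAD motif (14.6%), AP-1 motif (7.9%) or interferon-gamma-activated site (8.5%). Malat1 had 1 E-box, and Kcnq1ot1 3 E-boxes and 3 CAAT boxes (37.9% of windows). The Mir17hg window starts from a RefSeq model that begins inside the miRNA cluster, and its 3 E-boxes are not upstream of the host transcript. A match is a description of the letters only, and binding was not measured.

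Before the other lncRNAs are taken in turn, the counts over them are set against all genes. These counts are a description, because the list was made with earlier results of these data known. Genes were called at an edgeR quasi-likelihood adjusted p (Benjamini-Hochberg) under 0.05. Of the 6 tested lncRNAs other than Dnm3os, 5 rose with dTAG-13 against control and 0 fell, where 62.1% of all tested genes were called, 30.0% higher and 32.1% lower. With dTAG-13 on top of doxycycline 4 of the 6 rose and 0 fell, where 64.1% of all genes were called, 30.7% higher and 33.4% lower. Doxycycline against control gave 3 of 6 higher (4 of 7 with Dnm3os) and 0 lower, where 33.5% of genes were called, 14.8% higher and 18.7% lower. Both compounds against dTAG-13 alone gave 2 of 7 higher and 0 lower, where 20.4% were called, 10.7% higher and 9.64% lower. Those 2 were Malat1 and Mir17hg. The dTAG-13 effect differed between cells with and without doxycycline for 1 of the 6, Neat1, where 22.9% of all genes were called.

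**Figure D2:**
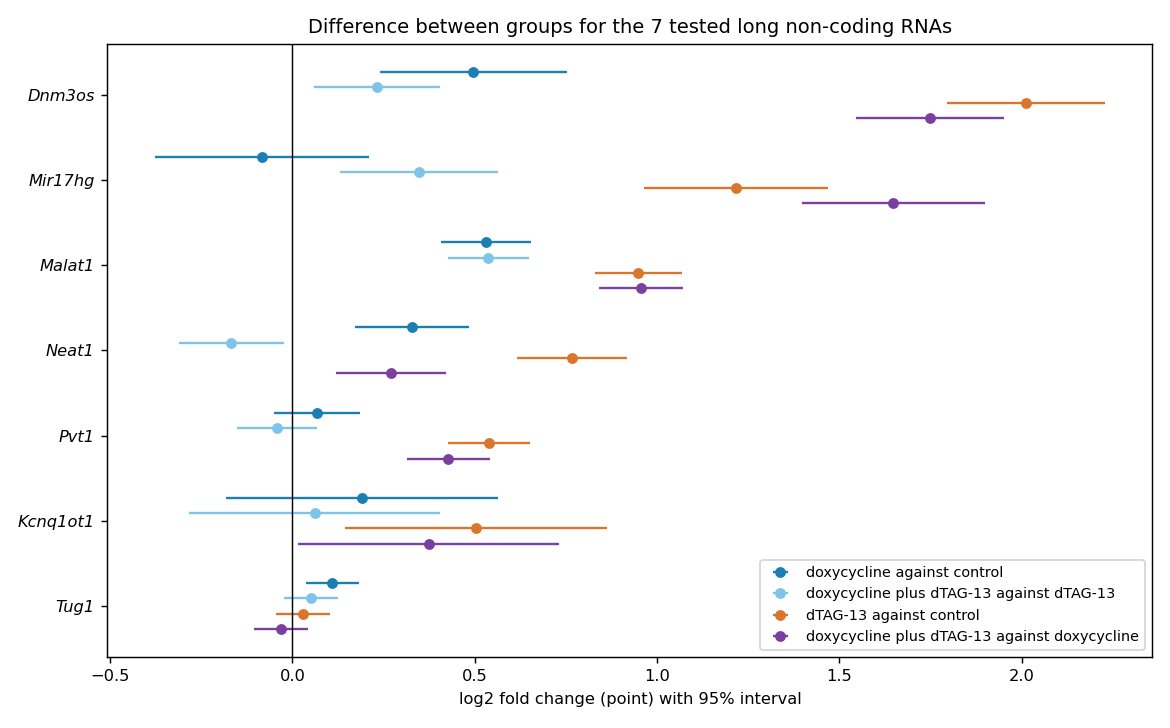
Log2 fold change (horizontal axis, point) with its 95% interval for the 7 tested lncRNAs in the 4 pairwise comparisons; those of Dnm3os with dTAG-13 chose the gene. Mir17hg and Malat1 are high with dTAG-13 in both comparisons (1.22 and 1.65, 0.95 and 0.96), and Tug1 lies near 0 in all 4.

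The split of all genes into higher and lower calls depends on scaling. With library size alone as the scale, 5256 genes were called higher and 3115 lower with dTAG-13 against control, in place of 3877 and 4144. Under that scale the split was 2546 to 1607 with doxycycline (1917 to 2414 with TMM), 926 to 2132 for both compounds against dTAG-13 alone (1386 to 1244) and 818 to 2424 for the difference of effects (1705 to 1245). After correction for length and GC content it was 1565 to 3010 with doxycycline and 1978 to 895 for the difference of effects.

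Mir17hg, the host of the miR-17-92 cluster, rose the most with dTAG-13 of the 6 tested lncRNAs other than Dnm3os. It was at 2.95, 2.32 and 3.58 CPM in control, 2.98, 2.57 and 2.76 with doxycycline, 6.88, 6.85 and 6.75 with dTAG-13, and 9.76, 7.94 and 8.46 with both compounds. All 6 libraries with dTAG-13 lay above all 6 without, and those with both compounds above those with dTAG-13 alone. The log2 fold change was 1.22 with dTAG-13 (SE 0.128, 2.32-fold, edgeR adjusted p = 6.94e-11) and 1.65 on top of doxycycline (SE 0.128, 3.13-fold, adjusted p = 1.25e-14). The difference of these effects, 0.43 (SE 0.186), had an edgeR adjusted p of 0.0908. Mir17hg rose by 0.35 from dTAG-13 alone to both compounds (SE 0.110, adjusted p = 0.0204), a call lost without doxycycline plus dTAG-13 library 1, dTAG-13 library 2 or dTAG-13 library 3, down to 0.27. Doxycycline alone gave -0.08 (adjusted p = 0.718), with overlapping groups.

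The cluster's own rows held few reads. Mir17, Mir18, Mir19a, Mir20a and Mir19b-1 together with Mir92-1 held 31 reads in control, 20 with doxycycline, 85 with dTAG-13 and 79 with both compounds, each summed over 3 libraries. Only Mir18 passed the filter, and its log2 differences of 1.17 (SE 0.632, edgeR adjusted p = 0.108) and 1.60 (SE 0.772, adjusted p = 0.069) did not pass the test. The 5 rows with reads are hairpins that lie before the RefSeq start of Mir17hg or across it. Mir92-1, wholly inside that RefSeq model, had 0 reads, as did Mir199a-2 and Mir214 inside Dnm3os and Mir675 inside H19. The nearest coding gene at lower coordinates, Slitrk5, a neuronal membrane protein gene 3359.7 kb away, fell by 0.21 with dTAG-13 (SE 0.0789, edgeR adjusted p = 0.0184), a call lost in 4 alternatives, and by 0.47 on top of doxycycline (SE 0.0805, adjusted p = 2.78e-06), which was -0.27 after length and GC correction.

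Malat1, the speckle RNA, rose with each compound and was highest with both. It was at 61.1, 57.7 and 54.3 CPM in control, 87.0, 77.9 and 85.2 with doxycycline, 113, 106 and 115 with dTAG-13, and 157, 154 and 173 with both. No 2 groups overlapped. The log2 fold change was 0.53 with doxycycline (SE 0.0629, edgeR adjusted p = 4.05e-05) and 0.54 when doxycycline was compared among cells with dTAG-13 (SE 0.0567, adjusted p = 3.06e-05). With dTAG-13 it was 0.95 (SE 0.0614, 1.93-fold, adjusted p = 3.6e-08), and on top of doxycycline 0.96 (SE 0.0582, 1.94-fold, adjusted p = 1.77e-08). The difference between the effects was 0.007, with a 95% interval of -0.16 to 0.17.

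The row of Neat1, the gene of the paraspeckle scaffold, rose with both compounds given singly, and its response to dTAG-13 was smaller in doxycycline-treated cells. It covers only Neat1 RNA captured on oligo(dT) beads and does not separate the transcripts of the gene. Paraspeckles themselves were not measured. Its levels were 12.6, 12.8 and 11.6 CPM in control, 15.5, 14.7 and 16.1 with doxycycline, 23.1, 20.6 and 19.2 with dTAG-13, and 18.99, 16.4 and 20.5 with both. The last 2 groups overlapped and both lay above the doxycycline libraries, which lay above control. The log2 fold change was 0.33 with doxycycline (SE 0.0800, edgeR adjusted p = 0.00131), 0.77 with dTAG-13 (SE 0.0767, adjusted p = 3.13e-11) and 0.27 with dTAG-13 on top of doxycycline (SE 0.0770, adjusted p = 0.0023). The difference of the dTAG-13 effects was -0.50 (SE 0.109, adjusted p = 0.000819). Between both compounds and dTAG-13 alone the log2 difference was -0.17 (SE 0.0739, adjusted p = 0.108). Correction for length and GC content moved the dTAG-13 values to 1.17 and 0.70, and without doxycycline plus dTAG-13 library 3 the smaller one was 0.19 and no longer called.

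Frmd8, the coding gene nearest to Neat1, encodes a partner of the iRhom proteins and lies 4.2 kb from Neat1. Frmd8 had log2 differences of -0.16 with dTAG-13 (SE 0.0485, edgeR adjusted p = 0.0039) and -0.11 on top of doxycycline (SE 0.0496, adjusted p = 0.0462). The first call was lost under library size alone, the second under 10 alternatives, and after length and GC correction the values were 0.05, not called, and 0.14, called higher (edgeR adjusted p = 0.0148).

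Pvt1 rose with dTAG-13 and not detectably with doxycycline, while Myc, 47.6 kb away, fell with each. Pvt1 was at 21.1, 24.2 and 21.6 CPM in control, 23.1, 24.1 and 22.9 with doxycycline, 32.7, 33.2 and 31.1 with dTAG-13, and 31.8, 29.1 and 33.3 with both. All libraries with dTAG-13 lay above all those without. Its log2 fold change was 0.54 with dTAG-13 (SE 0.0575, edgeR adjusted p = 9.9e-11) and 0.43 on top of doxycycline (SE 0.0585, adjusted p = 2.89e-08). Doxycycline gave 0.07, with a 95% interval of -0.05 to 0.19 (adjusted p = 0.422), and among cells with dTAG-13 it gave -0.04, with an interval of -0.15 to 0.07 (adjusted p = 0.667).

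Myc, a transcription factor of growth genes, was at 470.8, 470.7 and 503.9 CPM in control, 375.7, 383.1 and 370.0 with doxycycline, 354.9, 363.7 and 363.0 with dTAG-13, and 343.8, 372.2 and 346.8 with both. The control libraries lay above all others. Myc fell by 0.36 with doxycycline (SE 0.0276, edgeR adjusted p = 1.19e-11) and by 0.42 with dTAG-13 (SE 0.0276, adjusted p = 3.84e-14). On top of doxycycline the value was -0.09 (SE 0.0279, adjusted p = 0.00763), with overlapping groups and a call lost without doxycycline plus dTAG-13 library 1, at -0.07.

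Kcnq1ot1, the imprinted antisense RNA that silences genes of the Kcnq1 domain on its own chromosome, was scarce. It was at 2.01, 1.74 and 1.77 CPM in control, 1.88, 2.23 and 2.21 with doxycycline, 2.12, 2.41 and 3.34 with dTAG-13, and 2.94, 2.99 and 2.33 with both, from 50 to 97 reads per library. The dTAG-13 libraries lay above the controls, with library 3 well above the other two. Kcnq1ot1 rose by 0.50 with dTAG-13 (SE 0.183, edgeR adjusted p = 0.0164), a call lost without dTAG-13 library 3, at 0.29, or without control library 2. The log2 difference on top of doxycycline was 0.37 (SE 0.183, adjusted p = 0.0716) and with doxycycline alone 0.19 (SE 0.190, adjusted p = 0.482). From dTAG-13 alone to both compounds it was 0.06, with a 95% interval of -0.28 to 0.41 (adjusted p = 0.858). Kcnq1 itself had 0 or 1 read in every library.

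H19, the imprinted lncRNA best known from fetal tissue, was close to absent. It had 2, 4 and 3 reads in control, 1, 7 and 2 with doxycycline, 2, 2 and 2 with dTAG-13, and 4, 2 and 2 with both. Summed over each group and divided by the raw totals this is 0.0957 CPM (95% Poisson interval 0.0437 to 0.182) in control, 0.111 (0.0530 to 0.203) with doxycycline, 0.0679 (0.0249 to 0.148) with dTAG-13 and 0.102 (0.0439 to 0.200) with both. The intervals, which cover counting error only, overlap, and a difference was not detectable at this depth. Its coding neighbour Igf2, the growth factor gene of the same domain, had 0 to 2 reads per library.

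Of 12 listed genes of these imprinted domains 5 could be tested. With doxycycline 1 was higher and 2 lower, with dTAG-13 1 higher and 0 lower, and with dTAG-13 on top of doxycycline 3 higher and 0 lower; between both compounds and dTAG-13 alone edgeR called 0, with 0 at an unadjusted p under 0.05 and 0 by DESeq2. Their median log2 difference was -0.13, 0.11, 0.07 and 0.08 in that order, beside -0.01, 0.02, 0.003 and -0.001 for all tested genes. Of all tested genes 33.5%, 62.1%, 64.1% and 20.4% were called in these comparisons. After length and GC correction 0 were higher and 1 lower with dTAG-13, and 2 higher and 1 lower on top of doxycycline. Tssc4, which encodes a factor of spliceosome assembly, fell by 0.26 with doxycycline (SE 0.0654, edgeR adjusted p = 0.00197) and rose by 0.36 with dTAG-13 on top of it (SE 0.0660, adjusted p = 6.83e-06). Cd81, a tetraspanin gene, rose by 0.15 with doxycycline (adjusted p = 0.000341) and by 0.14 with dTAG-13 (adjusted p = 0.000195), but the latter was -0.01 after length and GC correction. Nap1l4, a histone chaperone gene, rose by 0.07 on top of doxycycline (adjusted p = 0.0149), which that correction turned to -0.03. Cdkn1c, the cell cycle inhibitor beside Kcnq1ot1, had log2 differences of 0.23 (SE 0.310) and -0.03 (SE 0.301) with dTAG-13, neither of which passed.

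Tug1 was the most even of the 7. It was at 85.9, 91.3 and 94.6 CPM in control, 98.5, 99.3 and 95.3 with doxycycline, 87.5, 97.8 and 91.9 with dTAG-13, and 94.3, 99.0 and 93.8 with both. Only doxycycline against control gave groups that did not overlap, by less than 1 CPM. With dTAG-13 the log2 difference was 0.03, with a 95% interval of -0.04 to 0.10 (edgeR adjusted p = 0.517), and on top of doxycycline -0.03, with an interval of -0.10 to 0.04 (adjusted p = 0.492). From dTAG-13 alone to both it was 0.05, with an interval of -0.02 to 0.12 (adjusted p = 0.393). Scaled by library size alone the value with dTAG-13 was 0.12 and was called higher. The rise with doxycycline was 0.11 (SE 0.0373, adjusted p = 0.0201) and was lost with DESeq2, after length and GC correction (0.01), without control library 1 and without doxycycline library 2.

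Morc2a, the gene of a chromatin-compacting ATPase whose start overlaps that of Tug1 in the GENCODE models, fell by 0.19 with dTAG-13 (SE 0.0269, edgeR adjusted p = 5.18e-08) and by 0.15 on top of doxycycline (SE 0.0274, adjusted p = 7.93e-06). After length and GC correction the first value was 0.02 and not called, and the second was 0.12 and called higher (edgeR adjusted p = 0.000264). Smtn, the smoothelin gene 99.2 kb from Tug1, fell by 0.55 (SE 0.0275, adjusted p = 1.27e-20) and 0.68 (SE 0.0282, adjusted p = 4.26e-23).

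Fold changes with dTAG-13 followed transcript length over all genes, and most of the lncRNAs are long. Tested genes with a known length (12448, or 96.4%) were cut into eighths by their longest transcript. The median log2 fold change with dTAG-13 ran from 0.23 in the shortest eighth to -0.27 in the longest, and on top of doxycycline from 0.39 to -0.37. Dnm3os, Malat1, Neat1, Kcnq1ot1 and Tug1 belong to the longest eighth, of 1556 genes between 6251 and 123179 bp, and were each above its median in both comparisons. No gene of that eighth was above Dnm3os in either comparison, which is again a description. For Malat1 10 and 3 genes of the eighth were higher, for Neat1 23 and 65, for Kcnq1ot1 50 and 44, and for Tug1 325 and 239. Mir17hg and Pvt1 belong to the fifth eighth, where the medians were -0.01 and -0.04. Above Mir17hg there were 6 and 2 genes of that eighth, and above Pvt1 62 and 89. With doxycycline alone the medians ran only from -0.05 to 0.03.

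**Figure D3:**
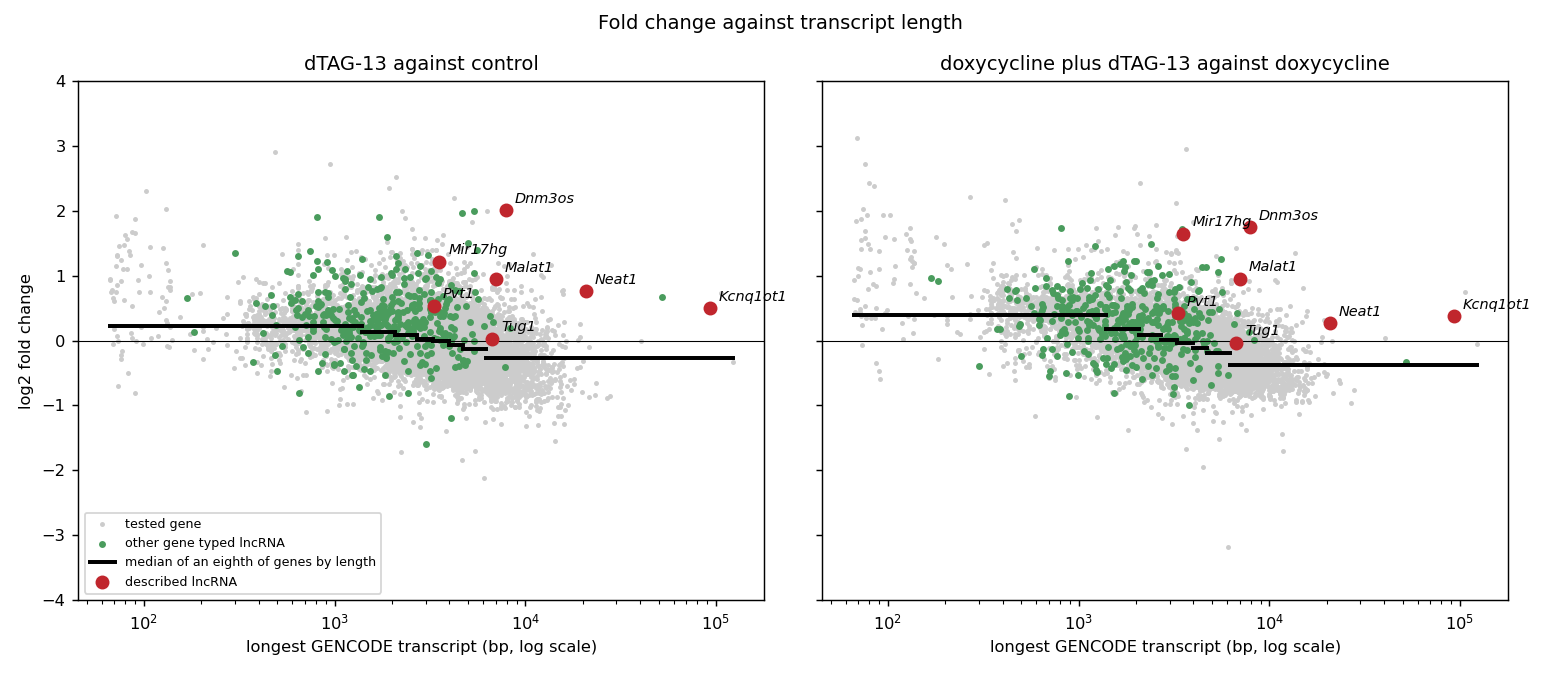
Log2 fold change (vertical axis) against the longest annotated transcript in bp (log scale) for the tested genes with a known length, without (left) and with (right) doxycycline. Grey points are genes, green points the other genes typed as lncRNA, red points the 7 lncRNAs described here, and black bars the medians of eighths by length; the bars fall from 0.23 to -0.27 on the left and from 0.39 to -0.37 on the right, while 5 red points stand over the longest eighth, above its bar.

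Besides the 8, 2069 rows are typed as lncRNA, and 430 of them passed the filter, which favours those expressed in at least one group. With dTAG-13 130 of these were called higher (30.2%, near the 30.0% of all tested genes) and 16 lower (3.72%, beside 32.1% of all). On top of doxycycline 130 were called higher (30.2%, beside 30.7%) and 14 lower (3.26%, beside 33.4%). Without dTAG-13 library 2 the 16 were 8, and by library size alone 9. The shares were not tested against each other. Their median log2 differences were 0.29 and 0.28, beside 0.02 and 0.003 for all tested genes, and 3481 of 11624 protein-coding genes were called higher and 4043 lower in the first comparison. The lncRNAs were shorter, with a median of 1860 bp against 3422 bp for coding genes, and sparser, with a median of 1.19 CPM against 35.97 CPM. After length and GC correction 78 of 394 were higher and 18 lower with dTAG-13 (median 0.14), and 54 higher and 24 lower on top of doxycycline (median 0.07). Doxycycline gave 20 higher (4.65%, beside 14.8% of all tested genes) and 17 lower (3.95%, beside 18.7%). Both compounds against dTAG-13 alone gave 11 higher (2.56%, beside 10.7%) and 13 lower (3.02%, beside 9.64%).

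**Figure D4:**
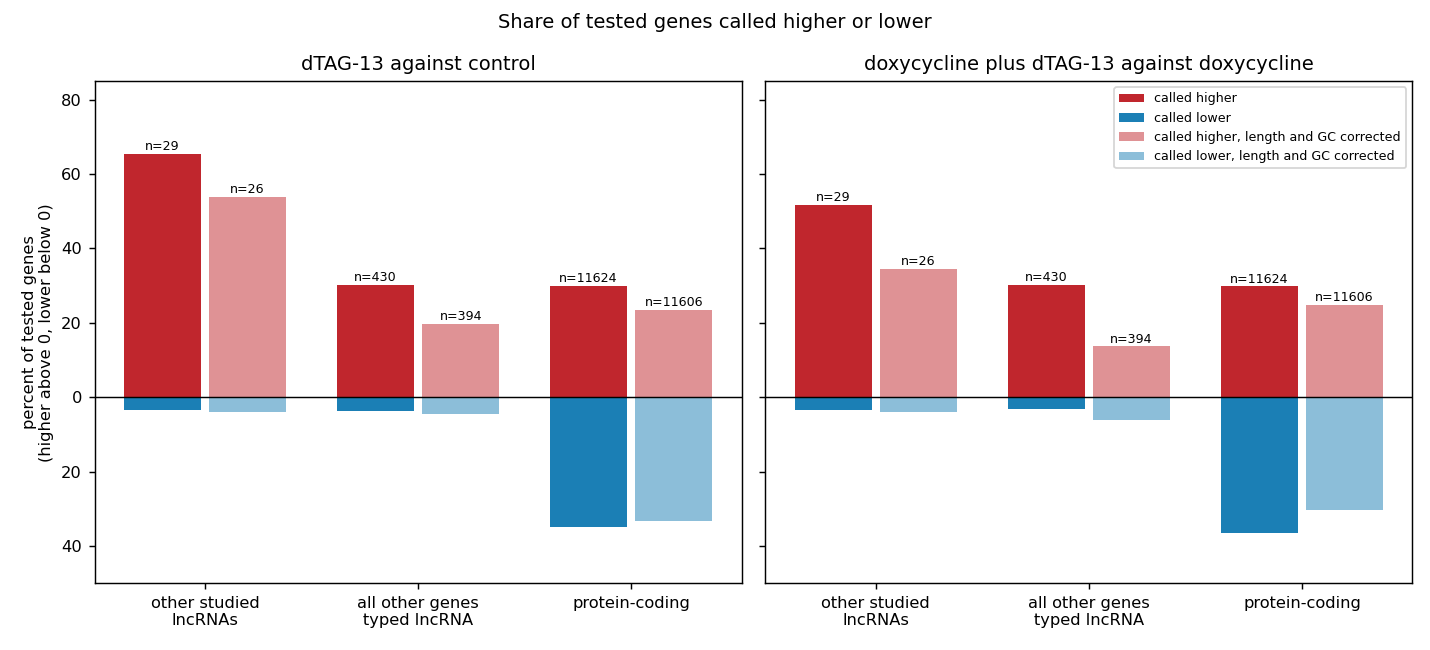
Percent of tested genes called higher (red, above 0) and lower (blue, below 0) with dTAG-13 against control (left) and on top of doxycycline (right), for 29 other studied lncRNAs, all other genes typed as lncRNA and protein-coding genes. Paler bars are the same after length and GC correction, and n is the number tested; lncRNAs have few lower calls under both settings, 16 of 430 and 18 of 394 on the left.

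In a list of 63 other studied lncRNAs, 48 were in the table and 29 were tested. With dTAG-13 19 were higher and 1 lower (median 0.54), and on top of doxycycline 15 higher and 1 lower (median 0.33). Among all tested genes the shares called higher were 30.0% and 30.7%, and those called lower 32.1% and 33.4%. After length and GC correction these became 14 and 1, and 9 and 1, of 26. Firre, a nuclear-organising RNA of the X chromosome, rose by 1.40 (SE 0.155, edgeR adjusted p = 2.41e-10) and by 1.26 (SE 0.148, adjusted p = 8.87e-10). Snhg1, a host of small nucleolar RNAs, rose by 1.04 with dTAG-13 (SE 0.0302, adjusted p = 4.77e-27). Rpph1, the RNA of ribonuclease P, rose by 1.47 on top of doxycycline (SE 0.469, adjusted p = 0.0226), a call lost in 4 alternatives, and the value was 0.78 without doxycycline plus dTAG-13 library 3. With doxycycline alone 3 were higher and 2 lower, among them Wincr1 at -0.36 (SE 0.0854, adjusted p = 0.00102) and Fendrr, an RNA of lateral mesoderm, at 0.32 (SE 0.0966, adjusted p = 0.00861). Both compounds against dTAG-13 alone gave 2 higher and 3 lower, with Lncenc1 at -1.13 (SE 0.217, adjusted p = 0.000122) and Mir22hg, the host of miR-22, at 0.50 (SE 0.0867, adjusted p = 2.66e-05). The shares called with doxycycline were 10.3% higher and 6.90% lower, beside 14.8% and 18.7% of all tested genes. For both compounds against dTAG-13 alone they were 6.90% and 10.3%, beside 10.7% and 9.64%.

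Among the other genes typed as lncRNA, the largest called rises with dTAG-13 by the naming rule were Gdap10 at 1.51 (SE 0.305, edgeR adjusted p = 4.25e-05), Firre and Foxl2os at 1.32 (SE 0.218, adjusted p = 1.47e-06). The largest falls were Zbtb11os1 at -0.72 (SE 0.260, adjusted p = 0.0153), Norad, a sponge of Pumilio proteins, at -0.53 (SE 0.0515, adjusted p = 4.5e-06), and 9130221H12Rik at -0.48 (SE 0.207, adjusted p = 0.0448). The calls of Zbtb11os1 and 9130221H12Rik were lost in 2 and 8 alternatives. With doxycycline Gdap10 rose by 1.34 (SE 0.312, adjusted p = 0.000729), 4930579G18Rik by 0.81 (SE 0.207, adjusted p = 0.00205) and Gm16973 by 0.80 (SE 0.269, adjusted p = 0.0182), while 1500015A07Rik had -0.77 (SE 0.149, adjusted p = 6.92e-05), Gm15473 -0.44 (SE 0.104, adjusted p = 0.000895) and 4930413G21Rik -0.42 (SE 0.127, adjusted p = 0.02). Leaving out single libraries lost the calls of Gm16973 and 4930413G21Rik.

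Genes of paraspeckles, the bodies built on Neat1, were more often lower than higher with either compound alone. Of 12 paraspeckle protein genes 0 rose and 9 fell with doxycycline, and 0 rose and 9 fell with dTAG-13 (medians -0.13 and -0.24). On top of doxycycline 2 rose and 6 fell (median -0.08). In the same order, 14.8%, 30.0% and 30.7% of all tested genes were called higher, and 18.7%, 32.1% and 33.4% lower. Sfpq, which binds Neat1 as a core paraspeckle protein, fell by 0.66 with dTAG-13 (SE 0.0263, edgeR adjusted p = 4.09e-22) and by 0.44 on top of doxycycline (SE 0.0265, adjusted p = 6.72e-17). Smarca4, a chromatin remodeller, fell by 0.72 (SE 0.0275, adjusted p = 1.75e-24) and 0.67 (SE 0.0278, adjusted p = 5.27e-23), which were -0.37 and -0.26 after length and GC correction. Scaled by library size alone, 1 paraspeckle gene rose and 8 fell with dTAG-13. From dTAG-13 alone to both compounds 1 fell, Cpsf6, a polyadenylation factor gene, by 0.09 (SE 0.0294, adjusted p = 0.0232), a call lost in 5 alternatives. In that comparison 10.7% of all tested genes were called higher and 9.64% lower.

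Of 11 nuclear speckle genes 1 rose and 7 fell with doxycycline, and 2 rose and 8 fell with dTAG-13, while on top of doxycycline 5 rose and 4 fell (medians -0.21, -0.23 and 0.04). Over all tested genes the shares called higher were 14.8%, 30.0% and 30.7%, and those called lower 18.7%, 32.1% and 33.4%. Srrm2, which encodes the scaffold protein of speckles, fell by 0.73 with dTAG-13 (SE 0.0357, edgeR adjusted p = 4.83e-13) and by 0.53 on top of doxycycline (SE 0.0355, adjusted p = 6.41e-11), which were -0.35 and -0.08 after length and GC correction. Srsf1, a splicing factor gene, fell by 0.27 with doxycycline (SE 0.0204, adjusted p = 3.32e-14), and Srsf3, of the same family, rose by 0.56 with dTAG-13 on top of doxycycline (SE 0.0346, adjusted p = 3.46e-13). Between both compounds and dTAG-13 alone 5 rose and 0 fell (3 and 1 when scaled by library size alone), Srrm2 among them by 0.27 (SE 0.0363, adjusted p = 1.36e-05). There, 10.7% of all tested genes were called higher and 9.64% lower.

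Genes that make and load miRNAs changed in both directions. Of 9 tested, 3 rose and 5 fell with dTAG-13 and 3 rose and 6 fell on top of doxycycline (medians -0.40 and -0.39, and -0.07 and -0.13 after length and GC correction). Over all tested genes the shares called higher were 30.0% and 30.7%, and those called lower 32.1% and 33.4%. Ago2, the slicing Argonaute, fell by 0.88 (SE 0.0492, edgeR adjusted p = 2.82e-09) and 0.92 (SE 0.0494, adjusted p = 1.54e-09). Dicer1 fell by 0.54 on top of doxycycline (SE 0.0420, adjusted p = 1.23e-14), and Prkra, a partner of Dicer1, rose by 0.53 with dTAG-13 (SE 0.0539, adjusted p = 2.81e-11). After that correction the falls were smaller, with Ago2 at -0.47 and -0.45 and Dicer1 at -0.13, and Dicer1 was still called, while Prkra was at 0.34. With doxycycline 1 rose and 2 fell (median 0.07, and 4 and 2 when scaled by library size alone), with Drosha, the nuclear hairpin-cutting enzyme, at -0.18 (SE 0.0249, adjusted p = 2.01e-07). Both compounds against dTAG-13 alone gave 0 higher and 1 lower, again Drosha, at -0.18 (SE 0.0256, adjusted p = 9.44e-07). Beside these counts, 14.8% and 10.7% of all tested genes were called higher, and 18.7% and 9.64% lower. Drosha had larger falls with dTAG-13, at -0.49 against control (edgeR adjusted p = 2.35e-20) and -0.49 on top of doxycycline (edgeR adjusted p = 4.98e-20). Its values after length and GC correction are not given here.

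The other dynamin genes and the Twist genes were listed because Twist1 is known to activate Dnm3os in development. Of 5 tested, 0 rose and 2 fell with dTAG-13 and 0 rose and 3 fell on top of doxycycline. Dnm2, the ubiquitous dynamin, fell by 0.31 (SE 0.0295, edgeR adjusted p = 3.73e-12) and 0.27 (SE 0.0300, adjusted p = 1.49e-10), which were -0.18 and -0.12 after length and GC correction. Dnm1, the neuronal dynamin, rose by 0.33 with doxycycline (SE 0.0382, edgeR adjusted p = 4.5e-09), and fell by 0.29 with dTAG-13 (SE 0.0398, adjusted p = 2.97e-08), which was -0.05 and not called after length and GC correction. Between both compounds and dTAG-13 alone 2 rose and 0 fell, Dnm1 by 0.21 (SE 0.0406, adjusted p = 0.000124) and Twist2 by 0.15 (SE 0.0367, adjusted p = 0.00202).

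Of 10 genes of nuclear RNA decay, the exosome and its cofactors that degrade many lncRNAs, 0 rose and 4 fell with doxycycline, 3 rose and 6 fell with dTAG-13, and 4 rose and 5 fell on top of doxycycline (medians -0.05, -0.09 and -0.04). Over all tested genes the shares called higher were 14.8%, 30.0% and 30.7%, and those called lower 18.7%, 32.1% and 33.4%. Scaled by library size alone, 3 rose and 3 fell with dTAG-13. Rbm7, of the complex that targets nuclear RNA to the exosome, rose by 0.51 (SE 0.0377, edgeR adjusted p = 3.82e-15) and 0.60 (SE 0.0381, adjusted p = 2.78e-17), which were 0.27 and 0.40 after length and GC correction. Exosc10, the nuclear exosome nuclease, fell by 0.26 with dTAG-13 (SE 0.0346, adjusted p = 2.1e-08), and its value was -0.17 when scaled by library size alone. Exosc3, an exosome subunit gene, rose by 0.33 on top of doxycycline (SE 0.0739, adjusted p = 0.00318), which was -0.001 after length and GC correction. Between both compounds and dTAG-13 alone edgeR called 0, with 1 at an unadjusted p under 0.05 and 0 by DESeq2. Of all tested genes 20.4% were called there.

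The genes whose pattern was most like that of each lncRNA were listed by Pearson's r of log2 CPM over the 12 libraries, which share the same 4 treatments, so that r is a description. Those nearest to Dnm3os were Mcfd2 and Crot (r = 0.997 each), Ghitm (0.993), Laptm4a (0.992) and Hspb11 (0.992), all with smaller differences than Dnm3os: their log2 values with dTAG-13 were 0.43, 0.34, 0.32, 0.33 and 0.59. Nearest to Malat1 were Avpi1 (0.990) and Cd9 (0.989), to Neat1 H2-M3 (0.972) and Avl9 (0.965), to Pvt1 Ssr3 (0.985) and Katnbl1 (0.982), and to Mir17hg Wdr45b (0.990) and Tmco1 (0.988). Kcnq1ot1 was nearest to the row of Entrez 100038425, which has no symbol here (0.911), and to Znrd1as (0.901), and Tug1 to Nod1 (0.927) and Pyroxd1 (0.893). Among the lncRNAs themselves Dnm3os had r of 0.973 with Pvt1, 0.937 with Malat1, 0.935 with Mir17hg and 0.898 with Neat1, while Tug1 had 0.006 to 0.226 with the other 6.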

How the data were processed

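RNA of 12 libraries was counted by the authors. Per the labels' protocols, total RNA was taken with an RNeasy kit, enriched on oligo(dT) beads and made into libraries with a NEBNext Ultra II kit. The deposited table holds raw read counts per Entrez gene. The file header names Subread alignments, and the submitters' processing notes name bcl2fastq 2.17, featureCounts and mm10. For the strand setting and for multi-mapping and overlapping reads, no setting was given in these sources. IDs were named from RefSeq (25275) or GENCODE (17), and 1887 kept no symbol. Genes were filtered with filterByExpr, scaled by TMM and tested over all 12 libraries with edgeR 4.0.16 (robust quasi-likelihood F test, two-sided, 1 mean per group, Benjamini-Hochberg over 12910 genes, called under 0.05) in R 4.3.3. The script was tested on simulated counts. Group sizes of 3 libraries limit precision, as do read numbers under 100 for Dnm3os, Mir17hg and Kcnq1ot1.

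The lncRNAs and gene lists were chosen with earlier results of these data known. Genes named outside the 8 are the coding genes overlapping or next to each, the 2 called genes of each list with the largest change, at least 1 CPM on average and groups that do not overlap, the 3 such lncRNA rows in each direction, and the most alike patterns. A few genes that this rule names are not reported here. The alternatives were DESeq2 1.42.0, its size factors in edgeR, library size alone, no filter on low counts, 1 CPM in 3 libraries, fits on the compared groups only, the replicate number as a block, a length and GC correction (splines with 5 degrees of freedom) and leaving out each library.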

Additional observations from a re-analysis of the deposited data

Results flagged for a closer look

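The dTAG-13 effect on Neat1 differed between cells with and without doxycycline: the log2 fold change was 0.77 without it and 0.27 with it, a difference of -0.50 (SE 0.109, edgeR adjusted p = 0.000819). The difference was between -0.57 and -0.41 under the 19 alternatives and passed the threshold in each of them. It is a test between libraries of 1 culture per group, and covers only Neat1 RNA captured on oligo(dT) beads.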

How the results depend on the processing

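Of 693 values (35 lncRNA results under each alternative), 658 kept direction and side of the threshold, 10 lost a call, 10 gained one and 15 turned sign. The cause was not tested. The 658 include Dnm3os with dTAG-13 against control and on top of doxycycline, each unchanged in 20 of 20 alternatives. Those comparisons chose the gene, so their part in the count is a description only. Leaving out 1 library at a time gave -0.221 to 0.067 for Mir17hg with doxycycline, -0.021 to 0.063 (with -0.015) for Tug1 with dTAG-13, -0.090 to 0.010 for Pvt1 and -0.070 to 0.269 (with -0.007) for Kcnq1ot1 between both compounds and dTAG-13 alone, and in the difference of effects -0.272 to 0.081 for Kcnq1ot1 and -0.048 to 0.054 for Malat1 (with -0.044, -0.036 and -0.032), which was -0.064 by library size alone. Length and GC correction turned Tug1 on top of doxycycline (0.069) and in the difference of effects (0.046), Kcnq1ot1 for both compounds against dTAG-13 (-0.176), and Cd81 (-0.010), Nap1l4 (-0.026), Exosc3 (-0.001), Frmd8 (0.054 and 0.140) and Morc2a (0.017 and 0.119). Leaving out 1 library gave 1 to 3 called lncRNAs for both compounds against dTAG-13 and 1 to 2 for the difference of effects. Counts of called genes over all genes, both directions summed, stayed within 1.5 times under every alternative run; counts by direction moved further under library size alone, as given in the report. Replicate numbers did not pair the libraries: the 18 same-number pairs correlated at -0.021 to 0.08, the other 36 at -0.061 to 0.066, and 4 of 12 libraries were closest to their own number. With the replicate block 7938 genes were called with dTAG-13 (8021 without it). No call of the 7 lncRNAs changed, where those of Dnm3os with dTAG-13 are again a description. Dnm3 on top of doxycycline gained a call at -1.44 and Frmd8 lost one at -0.11. Depth limits H19, Kcnq1ot1, Dnm3 and the miRNA rows.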
